A study of Mus musculus and Rattus norvegicus with 18 samples.

Results

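Translational efficiency compares the ribosomes on a gene's messenger RNA with the amount of that RNA. It was measured here at baseline, in control hearts, as the ratio of ribosome footprints to RNA reads. The members were the 4 control libraries, of 18 samples in the series, and within them the genes with at least 50 counts in each of the 4 libraries. Footprints were taken on the longest open reading frame listed for a gene. Of 17866 genes with both measurements, 9551 met this rule.

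The hearts came from 4-week-old C57BL/6 mice. Control (Ctrl) animals had 2 RNA-seq and 2 Ribo-seq libraries, and Ribo-seq sequences the stretches of RNA that ribosomes cover. The other hearts of the series carried a conditional knockout (cKO) of Mettl1, a tRNA N7-methylguanosine methyltransferase, and their 2 libraries per assay are used only for a comparison of the same ratios. The labels used here give neither the Cre driver and the cells it acts in, nor the alleles that Ctrl animals carry. They also do not say that the replicates were separate animals, so every p-value measures only the spread between these libraries, with n = 2 per assay.

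Ribosomes load at the start of a frame and move along it, so a messenger RNA with faster initiation carries more footprints per copy. Many ribosomal protein and elongation factor messages begin with a run of pyrimidines, the 5′ terminal oligopyrimidine (TOP) motif, through which mTOR signalling and the RNA-binding protein Larp1 hold back or release their translation. Upstream frames, as in Atf4 or Ppp1r15a, catch ribosomes before the main frame. In heart muscle most protein synthesis goes into contractile proteins and mitochondrial enzymes, with fibroblasts, endothelial cells and macrophages adding their own messages to whole-tissue RNA.

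The RNA libraries held 15964981 and 16203593 counts and the footprint libraries 25171650 and 33776178. Genes meeting the rule carried between 91.4% and 96.6% of each library. Replicates lay close together across the 9551 genes, with a Pearson r of log2 CPM, the counts scaled to a common library size, of 0.995 for RNA and 0.994 for footprints. Mitochondrially encoded genes took 25.6% and 26.3% of RNA counts but 2.67% and 1.92% of footprints, and their listed frames are fragments. Defining cardiomyocyte markers summed to 58938 and 58099 CPM in RNA and to 172988 and 171395 CPM in footprints, well above the marker lists of the other cell types in every library. In whole tissue, fewer cells of a type and less RNA per cell cannot be told apart.

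The number of frames that the footprint table lists for a gene moved with the ratio, and this bears on every low value below. Ratios are given as log2 of TMM-scaled footprints over TMM-scaled RNA, fitted with edgeR. RNA was counted per gene and footprints per frame, and neither was scaled to length. The part of transcript length, or of message outside the frame, in the ratios of any gene or list below was not tested. The 6142 genes with 1 frame had a median ratio of 0.22. Genes with 2 frames had a median of -0.33, genes with 3 frames -0.78, genes with 4 frames -1.10, and the 126 genes with 5 or more frames -1.37. At least 2-fold fewer footprints than RNA were called in 13.7% of genes with 1 frame and in 64.3% of genes with 5 or more. The 192 genes with a pseudogene named after them, by the gene's own symbol and a -ps ending, had a median of -1.21. The sources used here do not say how reads that fit several frames or several copies were counted, and the part of this in the low ratios was not tested. A set of 3297 genes with 1 frame, no named pseudogene, no overlapping RefSeq gene record and no mitochondrial origin is therefore given beside the whole. It is called the single-frame set, and its median ratio was 0.29. Pseudogenes under other names, such as Gm numbers, were not flagged, so genes with such copies can remain in it.

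**Figure D1:**
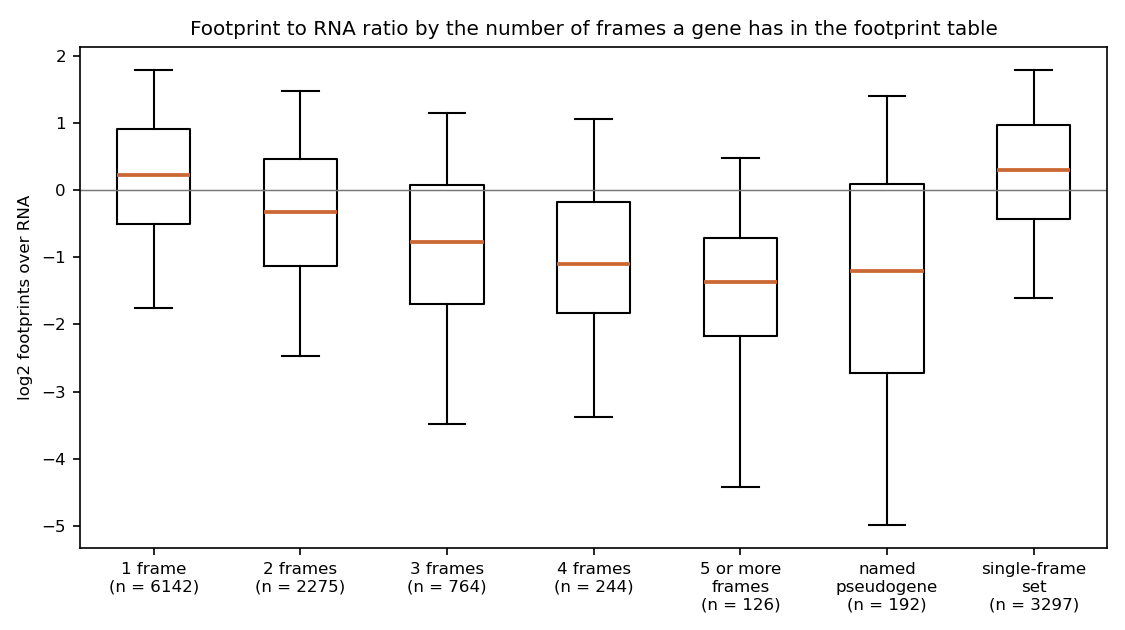
Boxes give the median and the 25th to 75th percentile of the log2 footprint to RNA ratio (vertical axis) over genes, with whiskers from the 5th to the 95th percentile, by the number of frames listed for the gene (horizontal axis). The median goes from 0.22 with 1 frame to -1.37 with 5 or more, and the single-frame set sits at 0.29.

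Across the 9551 genes the ratio spanned a wide range. The middle 50% of genes lay between -0.83 and 0.74, and the middle 90% between -2.35 and 1.70, a linear ratio of 0.196 to 3.25. In 8601 genes, 90.1% of those tested, the footprint libraries did not overlap the RNA libraries in CPM. By edgeR's quasi-likelihood test at an adjusted p under 0.05, 3823 genes (40.0%) had more footprints than RNA and 3861 (40.4%) had fewer. Of these, 1700 (17.8%) were at least 2-fold higher and 2046 (21.4%) at least 2-fold lower. The single-frame set held 1649 genes (50%) with more footprints than RNA and 948 (28.8%) with fewer, of which 781 (23.7%) were at least 2-fold higher and 399 (12.1%) at least 2-fold lower. Counts within that set are read against these shares. The ratio is relative: scaling by library totals in place of TMM moved the median of all genes from -0.02 to -0.21 and the split to 3230 higher and 4503 lower.

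The gene lists below are read against those shares and against the median of -0.02 over all genes. In the plot of ratios by gene list, nuclear genes for the respiratory chain stand at the high end and cytosolic ribosomal proteins at the low end, while other lists of mitochondria, sarcomere and translation spread between them.

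**Figure D2:**
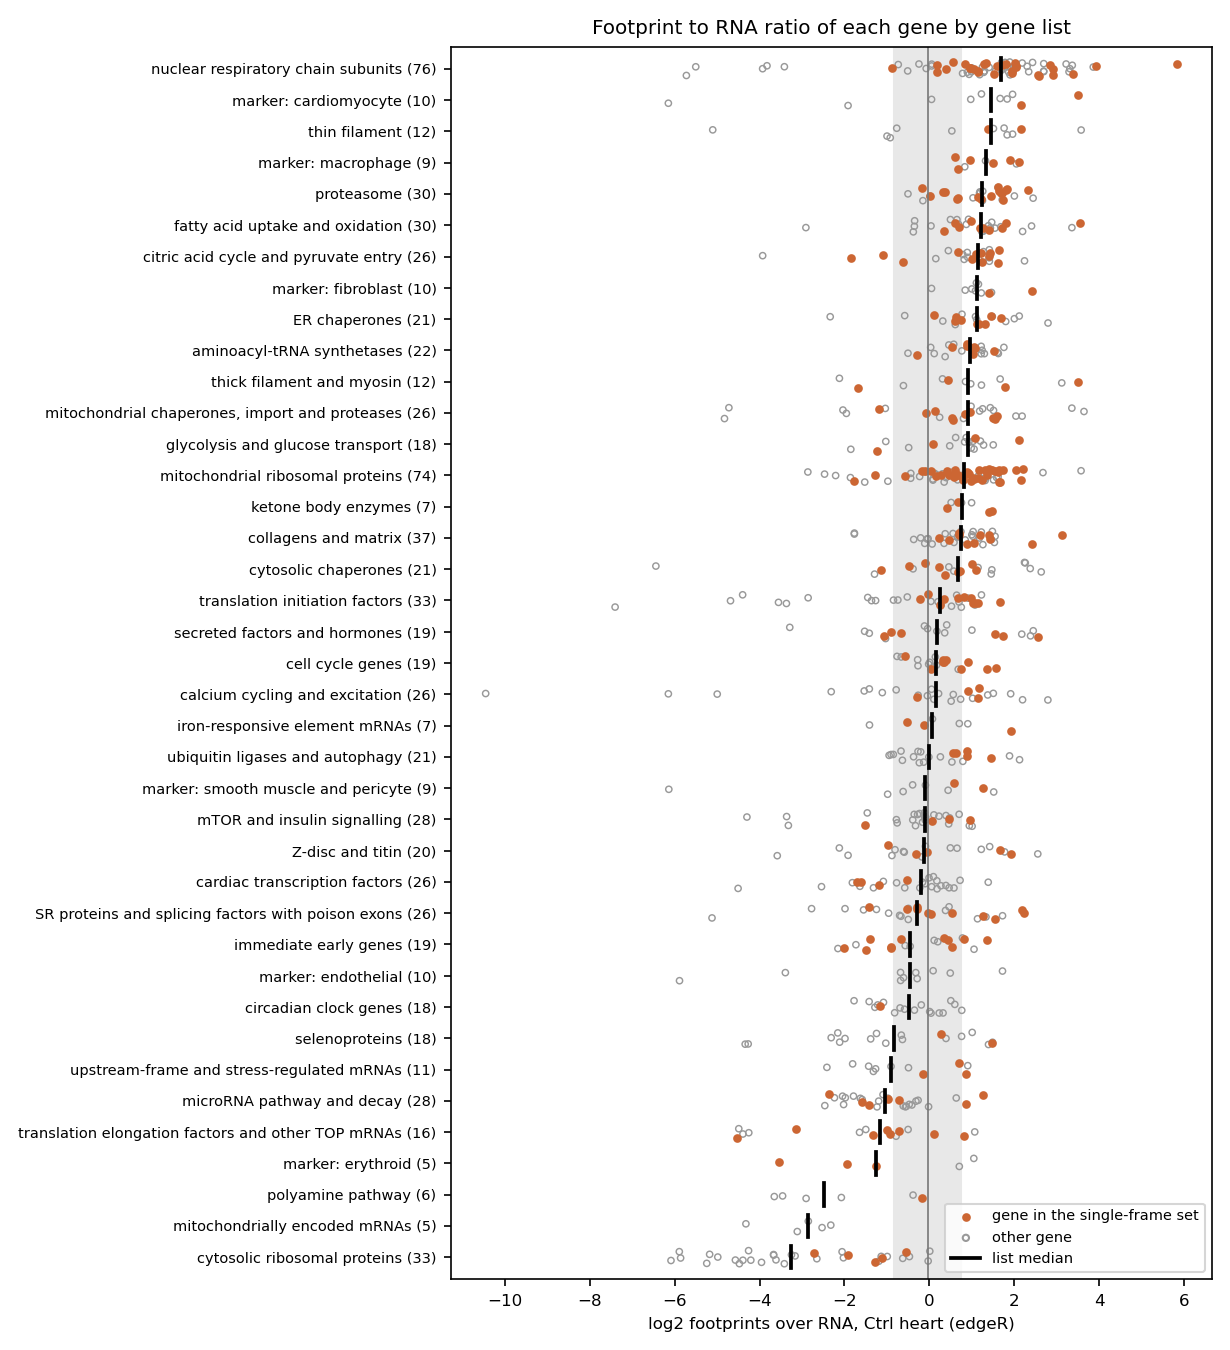
Each point is a gene that met the rule, placed by its log2 footprint to RNA ratio in Ctrl heart (horizontal axis) and its gene list (vertical axis, with the number of genes). Filled points are in the single-frame set, black bars are list medians, the grey band is the 25th to 75th percentile of all 9551 genes and the thin line their median. The median of nuclear respiratory chain subunits is 1.70 and that of cytosolic ribosomal proteins -3.25.

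Nuclear genes for the respiratory chain were read far above their RNA level. Of 80 listed subunits 76 met the rule, and their median ratio was 1.70, or 3.25-fold. In this list 63 genes had more footprints than RNA and 8 had fewer. Within the single-frame set 28 of 30 were higher and 1 lower, with a median of 1.66. These 76 genes held 5.39% and 5.23% of the RNA counts of nuclear genes and 10.4% and 10.6% of the footprints.

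The complexes differed in their medians. Genes with an Nduf symbol, most of them subunits of complex I, which takes electrons from NADH, had a median of 2.02 over 37 genes, with 32 higher and 4 lower. Ndufa5, an accessory subunit (chromosome 6, GRCm38.p6), had 94.3 and 82.5 CPM of RNA and 1372 and 1326 CPM of footprints. Ndufb9 had 140 and 142 CPM of RNA and 1441 and 1500 CPM of footprints. In both genes each footprint library lay about 10-fold or more above each RNA library, with ratios of 3.93 ± 0.09 (SE) and 3.38 ± 0.08 and adjusted p values of 2.3e-12 and 2.3e-12 by edgeR. The core subunits Ndufs1 and Ndufv1, which carry the electron-transfer centres, had ratios of 2.02 and 2.44.

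Complex II, succinate dehydrogenase, is encoded by 4 nuclear genes, all of which had more footprints than RNA. The flavoprotein Sdha had 1152 and 1133 CPM of RNA and 2980 and 2816 CPM of footprints. The iron-sulfur subunit Sdhb had 705 and 702 CPM of RNA and 2081 and 2194 CPM of footprints. The membrane anchor Sdhc had 425 and 423 CPM of RNA and 875 and 824 CPM of footprints. The ratio was 1.34 for Sdha, 1.60 for Sdhb and 1.16 for Sdhd, the other anchor. Per length, the subunits were closer than these counts: footprint density was 449 and 424 CPM per 100 codons on Sdha, 738 and 778 on Sdhb, 518 and 488 on Sdhc and 501 and 543 on Sdhd.

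Complex III, which passes electrons to cytochrome c, had 9 of 9 genes higher, with a median of 1.28. Its Rieske protein Uqcrfs1 had 725 and 730 CPM of RNA and 2853 and 2776 CPM of footprints, the highest ratio of the 9 at 1.95. Complex IV subunits had a median of 0.95 over 13 genes, of which 8 were higher and 2 lower, and ranged from Cox7c at -5.50 to Cox7a1, the heart and muscle isoform, at 3.29. Cox7c has named pseudogenes. Cox4i1, the largest nuclear subunit, had 1015 and 965 CPM of RNA and 6130 and 6724 CPM of footprints. ATP synthase subunits had a median of 1.30 over 13 genes, with 10 higher and 2 lower. The catalytic subunit Atp5b had 5151 and 5088 CPM of RNA and 16740 and 16572 CPM of footprints, a 3.25-fold difference with no overlap between the assays. The 4 lowest genes of the whole list, Ndufab1, Cox7c, Atp5l and Ndufs5, all have named pseudogenes.

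Fuel enzymes of the mitochondrial matrix had ratios above the median of all genes as well. The 26 listed genes for pyruvate entry and the citric acid cycle all met the rule, 21 had more footprints than RNA and 4 had fewer, with a median of 1.15. Dihydrolipoamide dehydrogenase Dld, shared by the pyruvate and oxoglutarate dehydrogenases, had 255 and 231 CPM of RNA and 1197 and 1108 CPM of footprints. Fumarase Fh1 had a ratio of 1.61 and citrate synthase Cs 0.79. Of the 4 lower genes, Pdhb, a subunit of pyruvate dehydrogenase with 1 frame, had 655 and 669 CPM of RNA and 326 and 297 CPM of footprints. Succinyl-CoA ligase showed members on opposite sides: Suclg1, the common alpha subunit, had a ratio of 1.41 and Suclg2, the GTP-specific beta subunit, -1.83.

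Fatty acid uptake and oxidation had a median of 1.22 over 30 genes, with 25 higher and 4 lower, and 10 of 10 higher in the single-frame set. Acadvl, which opens the oxidation of long chains, had 472 and 482 CPM of RNA and 2204 and 2181 CPM of footprints. Lipoprotein lipase Lpl, which frees fatty acids at the vessel wall, had 2644 and 2500 CPM of RNA and 14251 and 13101 CPM of footprints and was among the 10 genes with the most footprints. The fatty acid carrier Cd36 had a smaller ratio, 0.69. The subunits of the trifunctional protein parted: Hadha had a ratio of 0.99, and Hadhb, which has 2 frames and a named pseudogene, -2.91. All 7 ketone body genes that met the rule had more footprints than RNA, with a median of 0.76 and the lowest, Aacs, at 0.43, and 4 of the 7 were in the single-frame set. Aacs did not pass without Ctrl RNA replicate 1 or 2 or without footprint replicate 2, at 0.43, 0.41 and 0.36.

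Of 21 listed genes of glycolysis and glucose transport 18 met the rule, with 13 higher, 4 lower and a median of 0.90. The other 3, Gapdh, Pgk1 and Pgam1, reached the count minimum in RNA but not in footprints, and all have named pseudogenes. Pgk1 had 2893 and 2705 RNA counts and 0 and 0 footprints. The filter thus left out members with few footprints. Of the 4 in the single-frame set 2 were higher and 1 lower, at a median of 0.58. Isoforms of an enzyme stood on opposite sides. Eno3, the muscle enolase, had 1258 and 1187 CPM of RNA and 3391 and 3561 CPM of footprints. Eno1, the general enolase, had 105 and 113 CPM of RNA and 44.3 and 47.6 CPM of footprints. The assays were apart in both, with Eno3 higher and Eno1 lower in footprints. Lactate dehydrogenase gave the same picture, with the heart form Ldhb at 0.83 and the muscle form Ldha at -1.03, though both have named pseudogenes. The insulin-responsive glucose carrier Slc2a4 had a ratio of 1.21.

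Mitochondrial ribosomal proteins had a median of 0.81 over 74 of 79 genes, with 53 higher and 12 lower. Of the 38 in the single-frame set 31 were higher and 3 lower, at a median of 0.97. Large-subunit genes had a median of 0.65 over 45 genes and small-subunit genes, with Dap3, 0.99 over 29, an order that turned in the single-frame set, at 1.03 over 23 and 0.91 over 15. The contrast with the cytosolic ribosome, below, is in the same 4 libraries.

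Genes of mitochondrial import, folding and proteolysis had 18 of 26 higher and 6 lower, with a median of 0.91. Grpel1, a cochaperone of the import motor, had 84.1 and 85.3 CPM of RNA and 391 and 381 CPM of footprints. The import receptor Tomm22, in the single-frame set, had 67.1 and 64.2 CPM of RNA and 28.1 and 29.8 CPM of footprints. The matrix chaperonin genes Hspd1 and Hspe1 were at -1.95 and -2.04, and both have named pseudogenes.

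Contractile messages were among the most heavily covered. Of 12 genes of myosin and the thick filament 8 had more footprints than RNA and 3 had fewer, with a median of 0.92. The 10 genes with the most footprints, Myh6, Myl3, Actc1, Mb, Myl2, Atp5b, Tnnt2, Lpl, Tnni3 and Tnnc1, held 24.4% and 23.7% of the footprints of nuclear genes against 9.47% and 9.47% of their RNA, a difference that choosing them by footprints favours. The 10 genes with the most RNA held 12.4% and 12.5% of RNA and 21.6% and 21.2% of footprints. Myh6, the alpha myosin heavy chain of the adult mouse ventricle (chromosome 14), had 21733 and 21506 CPM of RNA and 53710 and 47696 CPM of footprints. The ventricular light chain Myl3 (chromosome 9) had 4221 and 4001 CPM of RNA and 46609 and 46718 CPM of footprints. The assays did not overlap in either gene, but the differences were unlike in size: 2.35-fold for Myh6 (ratio 1.23 ± 0.08, SE; adjusted p = 1.8e-08 by edgeR) and 11.4-fold for Myl3 (3.50 ± 0.08; adjusted p = 2.4e-12). The other ventricular light chain, Myl2, had 6559 and 6466 CPM of RNA and 20232 and 21261 CPM of footprints, a ratio of 1.67.

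Of 12 thin filament genes 8 had more footprints than RNA and 4 had fewer, with a median of 1.45. Cardiac actin Actc1 had 9744 and 10179 CPM of RNA and 37533 and 40184 CPM of footprints. The troponins, which make the filament sensitive to calcium, differed among themselves: Tnnt2 had a ratio of 1.84, Tnni3 2.15 and Tnnc1 3.58. Tnnc1 had 1034 and 981 CPM of RNA and 12174 and 11913 CPM of footprints. Tropomyosin Tpm1, which lies along the filament, went the other way with 9697 and 9696 CPM of RNA and 264 and 300 CPM of footprints on its longest frame, one of 3 that share a start. On footprint density per 100 codons, Tnnt2 had 4468 and 4104 CPM, Tnni3 6332 and 6174 and Tnnc1 7561 and 7400. The myosin genes spread more, at 2771 and 2461 CPM per 100 codons for Myh6, 12188 and 12808 for Myl2 and 19834 and 19880 for Myl3.

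**Figure D3:**
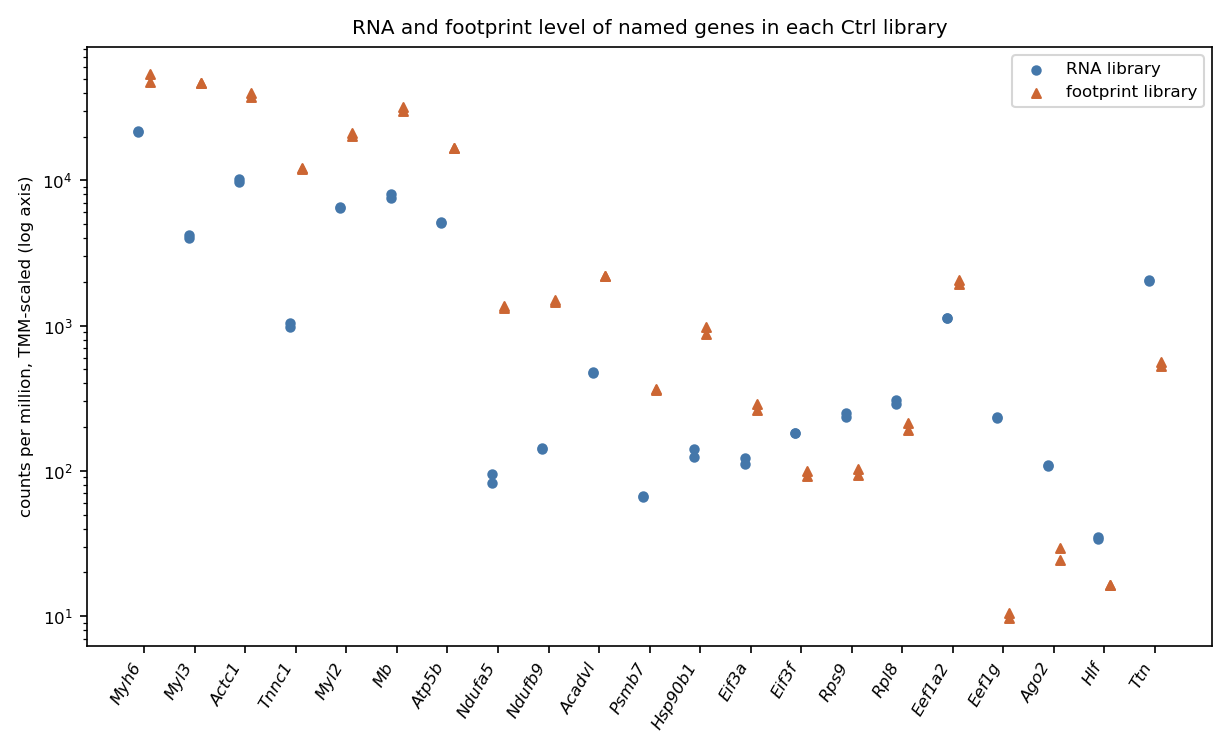
Circles are the 2 RNA libraries and triangles the 2 footprint libraries of Ctrl heart, in TMM-scaled CPM on a log axis, for 21 genes described in the text. The footprint libraries lie above the RNA libraries from Myh6 to Eif3a and for Eef1a2, and below them from Eif3f to Rpl8 and for Eef1g, Ago2, Hlf and Ttn.

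The list of 20 Z-disc genes with titin had 8 higher and 9 lower. Titin, Ttn, the spring that spans from Z-disc to M-line, has the longest frame in the table at 33467 codons. It had 2055 and 2026 CPM of RNA and 559 and 524 CPM of footprints, a ratio of -1.91 with no overlap between the assays. The M-line protein Myom1, with 1 frame, had 1287 and 1262 CPM of RNA and 392 and 403 CPM of footprints, a ratio of -1.68. Neb had a ratio of -0.92. In the opposite direction, the Z-disc actin crosslinker Actn2 at 0.66, Nexn at 1.92, Csrp3 at 1.66 and the small heat shock protein Cryab at 2.56 had more footprints than RNA. Myh7, the beta myosin chain, had 94.4 and 74.5 CPM of RNA and 955 and 518 CPM of footprints. Its footprint libraries differed widely and its sequence is close to that of Myh6, so its value is uncertain.

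Calcium handling holds the lowest ratio of all genes. Atp2a2, which pumps calcium back into the sarcoplasmic reticulum (chromosome 5, 122453513 to 122502225, GRCm38.p6), had 12941 and 13095 CPM of RNA and 8.08 and 10.3 CPM of footprints on its longest frame. The ratio was -10.46 ± 0.13 (SE), with an adjusted p of 8.2e-14 by edgeR. Its 7 listed frames include frames of 998 and 1044 codons that start at the same base and carried 2 and 4, and 178 and 307, footprints. An upstream frame of 38 codons held 1876 and 2372. Phospholamban, Pln, the pump's inhibitor, has 12 frames, and its longest, of 76 codons, carried 423 and 447 footprints. Another Pln frame, of 75 codons, carried 127771 and 147301. With the frame that had the most footprints, the ratio of Pln was 2.17 in place of -6.15, and that of Atp2a2 was -7.29 in place of -10.46. Whether footprints that fit several frames of Atp2a2 entered the table was not tested.

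The calcium genes did not move as a group. Of 26 that met the rule, Atp2a2 and Pln included, 12 had more footprints than RNA and 10 had fewer, with a median of 0.16 (-0.02 when scaled by library totals). The calcium-store proteins Trdn, Hrc and Casq2 had ratios of 2.80, 2.20 and 1.38, and the exchanger Slc8a1 had 1.14. Casq2, the calcium buffer of the store, had 949 and 994 CPM of RNA and 2559 and 2491 CPM of footprints. The potassium channel Kcnh2 had 85.7 and 91.6 CPM of RNA and 37.6 and 44.6 CPM of footprints. Camk2d, a calcium-dependent kinase with 4 frames of which 3 share a start, had 119 and 126 CPM of RNA and 3.04 and 4.45 CPM of footprints on its longest.

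Cytosolic ribosomal proteins stood at the opposite end from the mitochondrial ones. Of 79 listed genes 33 met the rule, 40 more had at least 50 RNA counts but not 50 footprints, 4 had no frame and 2 had neither count. Of the 33, 31 had fewer footprints than RNA, 27 of them at least 2-fold, and none had more. Their median was -3.25. Of the 33, 21 have a named pseudogene, and the filter left out the members with the fewest footprints, and the part of either in this median was not tested. The 5 genes in the single-frame set all had fewer footprints, with a median of -1.29.

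Those 5 included Rps9 and Rpl8. Rps9 had 250 and 233 CPM of RNA and 94.2 and 104 CPM of footprints. Rpl8 had 306 and 286 CPM of RNA and 191 and 214 CPM of footprints. In both genes the higher footprint library lay below the lower RNA library, with ratios of -1.29 ± 0.08 and -0.55 ± 0.08 (SE) by edgeR. Lowest of the 33 was Rps2, at -6.09. The highest, Rps19, had 70.5 and 69.7 CPM of RNA and 78.5 and 63.1 CPM of footprints and did not pass the test (adjusted p = 0.92 by edgeR). Both have named pseudogenes.

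Elongation factors and other messages known for a TOP motif had a median of -1.17 over 16 genes, with 13 lower and 2 higher. Of the 8 in the single-frame set 6 were lower and 1 higher. Eef2, which moves the ribosome along, had 1945 and 1819 CPM of RNA and 567 and 638 CPM of footprints. The paralogs that deliver aminoacyl-tRNA parted: Eef1a2, the muscle and neuron form, had 1122 and 1132 CPM of RNA and 1942 and 2060 CPM of footprints, and Eef1a1, the general form, 1751 and 1664 CPM of RNA and 80.3 and 98.4 CPM of footprints. Eef1a1 has named pseudogenes and its coding sequence is close to that of Eef1a2, so the value of Eef1a1 is uncertain. Eef1g, in the single-frame set, had 231 and 236 CPM of RNA and 10.5 and 9.63 CPM of footprints, a ratio of -4.54.

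Initiation factors as a list were mixed: of 33 that met the rule, 18 had more footprints than RNA and 12 had fewer, 9 of them at least 2-fold, with a median of 0.26. The scaffold Eif4g1, with 5 frames, had 495 and 501 CPM of RNA and 198 and 190 CPM of footprints, and Eif1, with 3 frames and a named pseudogene, was at -7.41. Of the 11 in the single-frame set 9 were higher and none lower.

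The initiation factor eIF3, which brings the small ribosomal subunit to the message, held members on both sides. Of 12 subunits that met the rule, 7 had more footprints than RNA and 3 had fewer. Those 3 were Eif3e, Eif3f at -0.93 and Eif3h at -0.71, all in the single-frame set and all listed here as TOP messages. Eif3e had 89.7 and 77.6 CPM of RNA and 41.1 and 42.3 CPM of footprints. Eif3f had 182 and 182 CPM of RNA and 91.9 and 99.1 CPM of footprints. Eif3a, the scaffold subunit, had 123 and 112 CPM of RNA and 289 and 262 CPM of footprints. Eif3g and Eif3d had ratios of 1.66 and 1.14. Eif3a, Eif3d and Eif3g are the 3 subunits called at least 2-fold higher, so their gap to the 3 lower subunits follows from the choice. The SE of each of these was 0.09 at most. Other higher subunits were less than 2-fold higher, and the median of the 12 was 0.43. Eif4b, an eIF4A helper also known for a TOP motif, was at -1.34. The TOP messages, those 3 eIF3 subunits among them, were listed apart from the 33 initiation factors.

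The start regions of some such genes, picked with their ratios known and without Eif3e and Eif3h, are printed to show their pyrimidines. Each is a window of 30 bases, 15 before and 15 from the RefSeq start, read 5′ to 3′ (RefSeq, GRCm38.p6), with the longest unbroken run of C or T in capitals. The first 3 genes had fewer footprints than RNA, the next 3 more, and the elongation factor paralogs close the set.
Eif3f (chr7:108934400-108934429, plus strand): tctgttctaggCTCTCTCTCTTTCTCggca
Rack1 (chr11:48800345-48800374, plus strand): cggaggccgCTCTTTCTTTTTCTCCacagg
Rps9 (chr7:3704026-3704055, plus strand): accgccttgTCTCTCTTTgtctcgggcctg
Eif3a (chr19:60790679-60790708, minus strand): cggggCTCgggcggcggcgctgccgccgcg
Eif3d (chr15:77970810-77970839, minus strand): gtggtagggccaTTTacgacagcgctggtc
Eif3g (chr9:20898576-20898605, minus strand): TCTTTacccgggctgggagctgcgtggagt
Eef1a1 (chr9:78481710-78481739, minus strand): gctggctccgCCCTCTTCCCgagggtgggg
Eef1a2 (chr2:181157001-181157030, minus strand): TCTCTCCTggtctgcgttctcgctcactgg

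The longest run was 15 bases in Eif3f, 16 in Rack1 and 9 in Rps9, against 3, 3 and 5 in Eif3a, Eif3d and Eif3g. It was 10 in Eef1a1 and 8 in Eef1a2, which differ in ratio. The runs of Eif3f, Rack1, Rps9 and Eef1a1 span the RefSeq start. Those of Eif3a, Eif3d, Eif3g and Eef1a2 lie wholly before it, outside the annotated message. Over all 27025 RefSeq genes with a promoter entry, 13.9% had a run of at least 8 C or T in this window on the gene's strand. Of 23 ribosomal protein genes that met the rule and had an entry, 9 (39.1%) had such a run, and those 9 had a median ratio of -2.06 against -3.64 for the other 14. A C at the start followed by 5 C or T stood in 2.05% of all entries and in 2 of the 23. Over the 7647 matched genes that met the rule, those with a run (15.1%) had a median ratio of -0.20 and those without 0.00, the opposite order. Within the single-frame set the medians were 0.19 and 0.29. The RefSeq start is an annotated position and the start used in these hearts was not measured, so a match is a description of letters and not of a working motif.

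The proteasome and the chaperone lists had median ratios above the median of all genes. Of 30 proteasome genes that met the rule, 25 had more footprints than RNA and 1 had fewer, with a median of 1.24. Of the 17 in the single-frame set 15 were higher and none lower. Without footprint replicate 1 or 2, the whole list had 2 lower. The core (alpha and beta) and the cap (ATPase, base and lid) had nearly the same median, 1.25 over 13 genes and 1.22 over 17. The core subunit Psmb7 had 67.5 and 65.6 CPM of RNA and 358 and 368 CPM of footprints, and the cap ATPase Psmc6 52.3 and 50.4 CPM of RNA and 270 and 248 CPM of footprints.

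Chaperones of the endoplasmic reticulum had a median of 1.12 over 21 genes, with 18 higher and 2 lower. Hsp90b1, the reticulum's Hsp90, had 142 and 125 CPM of RNA and 977 and 881 CPM of footprints. Hspa5, or BiP, had 446 and 432 CPM of RNA and 1810 and 1711 CPM of footprints. The folding enzyme Pdia4 had a ratio of 2.12, and the lectin chaperone Calr had 362 and 374 CPM of RNA and 1309 and 1256 CPM of footprints. Atf6, the stress sensor of the same compartment and not a chaperone itself, had fewer footprints than RNA, at -0.58.

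Aminoacyl-tRNA synthetases, which charge tRNAs, had a median of 0.97 over 22 genes, with 18 higher and 2 lower. Nars, for asparagine, had 64.0 and 62.9 CPM of RNA and 186 and 182 CPM of footprints. The lower genes were Qars, for glutamine, at -0.28 and Yars, for tyrosine, at -0.50, the latter with 6 frames. Without Ctrl RNA replicate 1 or 2, Qars no longer passed the test, at -0.28 and -0.28. Of the 8 in the single-frame set 7 were higher and 1 lower.

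Cytosolic chaperones had a median of 0.69 over 21 genes, with 15 higher and 5 lower. All but 1 of the 8 subunits of the folding ring CCT had more footprints than RNA. Hspa8, the constitutive Hsp70, stood apart from its list with 1126 and 1055 CPM of RNA and 11.3 and 13.6 CPM of footprints, a ratio of -6.44. It has 1 frame of 646 codons, and a RefSeq record overlaps it.

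Most genes of microRNA silencing and RNA decay had fewer footprints than RNA, and the part of transcript length in this was not tested. In that list 23 of 28 were lower and 3 higher, with a median of -1.03, and in the single-frame set 5 of 7 were lower, at -0.97. All 7 genes for Argonaute and GW182 proteins, which carry out silencing by microRNAs, were lower, with a median of -1.58. Of these 7, 2 are in the single-frame set. Ago2 had 108 and 110 CPM of RNA and 24.4 and 29.2 CPM of footprints. Tnrc6a had 40.6 and 38.3 CPM of RNA and 8.31 and 8.43 CPM of footprints. The 3 higher genes were Upf1, Upf2 and Upf3b of nonsense-mediated decay, with ratios of 0.64, 0.86 and 1.25. The 4 Smg genes of the same pathway were between -2.04 and -1.19. None of the 4 Smg genes is in the single-frame set, against 2 of the 3 Upf genes.

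Splicing factors, a list of SR proteins and others with poison exons, were mixed, with 14 of 26 lower and 10 higher, and 4 of 11 lower and 5 higher in the single-frame set.

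Circadian clock genes had 10 of 18 lower and 3 higher, with a median of -0.47. Per2 and Per3, the negative limb of the clock, had ratios of -1.22 and -1.77, and Hlf, a PAR-type output factor, had 35.2 and 33.8 CPM of RNA and 16.3 and 16.4 CPM of footprints. All but 1 of the 18 lie outside the single-frame set. The clock median was -0.51 without footprint replicate 2 and -0.24 in the cKO libraries. Cardiac transcription factors had 13 of 26 lower and 6 higher, with a median of -0.19. The 4 in the single-frame set were all lower, at a median of -1.40. Tead1, a partner of Yap, had 241 and 235 CPM of RNA and 73.6 and 72.9 CPM of footprints. Rxra, the retinoid receptor, had 95.9 and 103 CPM of RNA and 30.8 and 34.5 CPM of footprints. In the opposite direction, Ppargc1b, a coactivator of mitochondrial genes, had a ratio of 1.39.

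Immediate early genes were mixed, with 9 of 19 lower and 6 higher. Btg2 had 61.1 and 102 CPM of RNA and 14.4 and 25.2 CPM of footprints, and Egr1 had 16.5 and 39.0 CPM of RNA and 6.77 and 13.9 CPM of footprints. In both genes the second library of each assay was the higher, so the ratio within each number, -2.12 and -2.05 for Btg2 and -1.34 and -1.53 for Egr1, varied less than the levels did. Ier3, at 1.36, was the highest of the list.

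Messages known for upstream frames or stress control had 7 of 11 lower and 3 higher, with a median of -0.90, and in the single-frame set 2 of 3 higher, at 0.69. Ppp1r15a, the phosphatase subunit that reverses the integrated stress response, had 54.1 and 49.0 CPM of RNA and 10.6 and 8.83 CPM of footprints. Atf4 fell short of the rule: its 288-codon frame carried 79 and 36 footprints and its 59-codon upstream frame 1262 and 1738, with 1656 and 1537 RNA counts. Polyamine genes had 5 of 6 lower and none higher. Odc1, the first enzyme of the pathway, with 3 frames, had 67.8 and 69.6 CPM of RNA and 5.86 and 5.12 CPM of footprints. Its inhibitor Oaz1, whose frame needs a programmed shift, was at -2.90, with named pseudogenes.

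Ubiquitin ligases and autophagy genes had 10 of 21 higher and 9 lower. The muscle RING-finger ligases were on the high side: Trim63 had 144 and 148 CPM of RNA and 385 and 421 CPM of footprints, and Trim54 had 77.2 and 81.3 CPM of RNA and 361 and 332 CPM of footprints. Genes of mTOR and insulin signalling had 9 of 28 higher and 10 lower, and 17 lower when scaled by library totals. Mtor itself had 64.2 and 67.1 CPM of RNA and 90.7 and 92.3 CPM of footprints.

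Messages with an iron-responsive element, a hairpin through which iron regulatory proteins block translation or protect the RNA, had 3 of 7 higher and 2 lower. Ferritin heavy chain Fth1, with the element at its 5′ end, had 1853 and 1758 CPM of RNA and 1214 and 1279 CPM of footprints. Transferrin receptor Tfrc, with elements at its 3′ end, had 100 and 110 CPM of RNA and 393 and 410 CPM of footprints. Both genes are in the single-frame set, and the assays did not overlap in either. Selenoprotein genes, which read a UGA codon as selenocysteine, had 11 of 18 lower and 6 higher, with a median of -0.84. Of the 18, 11 have more than 1 frame, and the median was 0.20 when footprints were summed over all frames. The 2 in the single-frame set had a median of 0.88. Selenop, the plasma carrier of selenium, had 502 and 496 CPM of RNA and 124 and 128 CPM of footprints.

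Genes of the other cell types of the heart lay on both sides of the median of all genes. Collagens and other matrix genes had 28 of 37 higher and 4 lower, with a median of 0.75, and 10 of 11 higher and none lower in the single-frame set. Col1a1, a chain of type I collagen, had 273 and 313 CPM of RNA and 1355 and 1795 CPM of footprints. Mgp, matrix Gla protein, had 193 and 170 CPM of RNA and 1434 and 1757 CPM of footprints. Col6a2, at -1.77, had 2 frames, while its partner chain Col6a1 had more footprints than RNA, at 0.67.

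Markers of fibroblasts had 9 of 10 higher and markers of macrophages 9 of 9 higher, with medians of 1.14 and 1.33. The complement gene C1qa had 78.7 and 84.2 CPM of RNA and 365 and 344 CPM of footprints. Endothelial markers had 7 of 10 lower and 2 higher, with a median of -0.46 and no gene in the single-frame set. The angiopoietin receptors Tie1 and Tek had ratios of -0.68 and -0.68, and Eng, with 3 frames, -5.89. Globin messages, from red cells in the tissue, had few footprints: Hbb-bs had 880 and 939 CPM of RNA and 59.8 and 95.2 CPM of footprints. Globin genes have near-identical copies, so the split between them is uncertain. The natriuretic peptides Nppa and Nppb, secreted by heart muscle, had ratios of 2.55 and 1.73, and Nppa had 68.8 and 59.9 CPM of RNA and 348 and 407 CPM of footprints.

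The ratio declined slightly with the length of the frame. In classes that end at 100, 200, 400, 800 and 1500 codons, the median was 0.16 for the 204 shortest genes and 0.15 for the next 966. It was 0.14 for the 2683 genes with up to 400 codons and -0.01 for the 3456 with up to 800. For the 1631 genes with up to 1500 codons it was -0.20, and for 611 genes with over 1500 codons -0.38. Spearman's rho between ratio and codons was -0.13 over 9551 genes, which are not independent replicates, and -0.13 and -0.14 in the libraries numbered 1 and 2. At least 2-fold more footprints than RNA were called in 32.8% of genes with up to 100 codons and in 7.04% of those with over 1500. At least 2-fold fewer were called in nearly the same share of these classes, 27.9% and 27.8%.

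Short frames were also the most scattered. The middle 50% of ratios spanned -1.27 to 1.49 with up to 100 codons and -1.12 to 0.28 with over 1500, and 55.4% of the shortest class had more than 1 frame against 39.0% of the longest. Over the single-frame set the medians were 0.35, 0.59, 0.38, 0.28, 0.10 and -0.20 over the same 6 classes. The highest class there was the second, up to 200 codons, and the shortest class held 49 genes. Within the long classes single genes still reached far to either side: Hsp90b1, with 802 codons, was the highest of its class with at least 50 CPM of RNA. Counts were not scaled to the length of the transcript, which was not used here, and the part of transcript length in this trend was not tested.

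**Figure D4:**
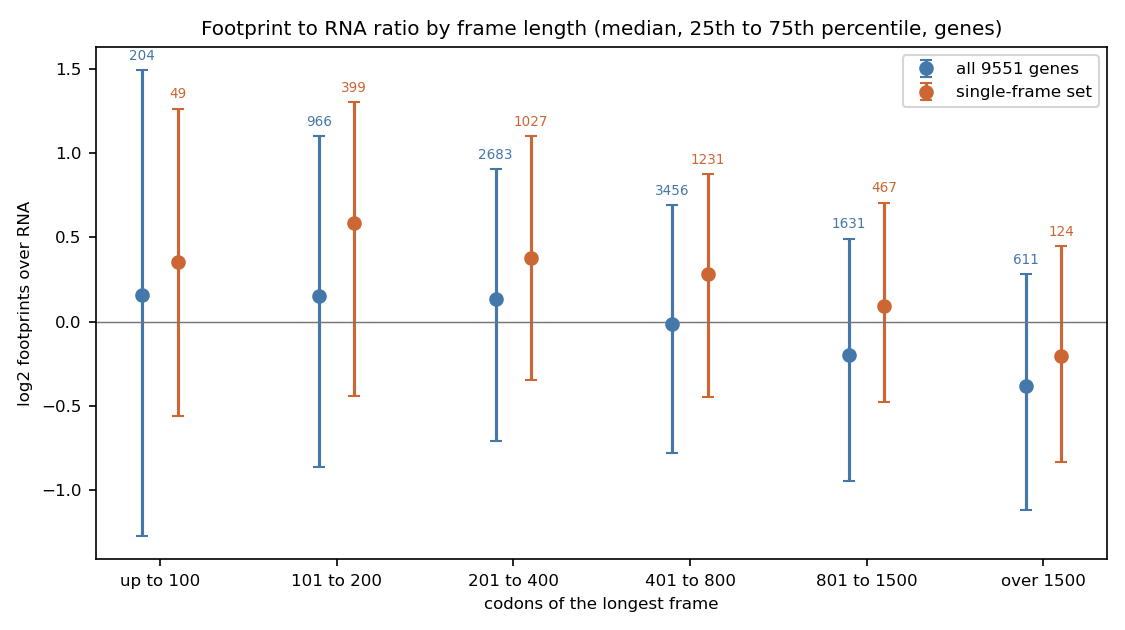
Points are the median log2 footprint to RNA ratio (vertical axis) and bars the 25th to 75th percentile over genes, by codons of the longest frame (horizontal axis), with the number of genes above each bar. All 9551 genes go from 0.16 in the shortest class to -0.38 in the longest, and the single-frame set from 0.35, with a top of 0.59 in the second class, to -0.20.

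Among genes with at least 10 CPM of RNA and no overlap between the assays, the 10 highest ratios belonged mostly to small mitochondrial proteins: Ndufb2, Ndufa5, Ndufa1, Tomm7, Tnnc1, Mrpl43, Acot13, Atp5mpl, Myl3 and Ndufb9. Ndufb2, at 5.85, had 9.48 and 10.6 CPM of RNA and 591 and 565 CPM of footprints, so its ratio rests on a low RNA level. So does that of Mrpl43, with 11.7 and 11.9 CPM of RNA. A RefSeq record overlaps Mrpl43 and Ndufa1. The thioesterase Acot13 had 156 and 152 CPM of RNA and 1870 and 1737 CPM of footprints. The 10 lowest were Atp2a2, Eif1, Hspa8, Pln, Abcc9, Rps2, Ctdsp2, BC005537, Rps26 and Eng. Of these only Hspa8 and Rps26 had 1 frame, and Rps26 has named pseudogenes. In the single-frame set, picked after the values were seen, the lowest were Sord, Thap12 and Eef1g. Sord, sorbitol dehydrogenase, had 175 and 182 CPM of RNA and 4.50 and 4.75 CPM of footprints.

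The same ratios were computed in the cKO libraries, which share no library with Ctrl. Spearman's rho between the Ctrl and cKO ratios was 0.98 over 9551 genes, close to the 0.98 between the libraries numbered 1 and those numbered 2 within Ctrl. Of the 1700 genes at least 2-fold higher in Ctrl, 1506 (88.6%) were also among the 1670 (17.5%) in cKO, of which they were 90.2%. Of the 2046 at least 2-fold lower in Ctrl, 1870 (91.4%) were among 2046 (21.4%) in cKO. The list medians in cKO were 1.49 for nuclear respiratory chain subunits, -3.20 for cytosolic ribosomal proteins and -0.90 for microRNA pathway and decay genes. The same frames and genes were used in both genotypes, and the count minimum was applied to the Ctrl libraries only. Genes that differ between the genotypes were not sought here.

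**Figure D5:**
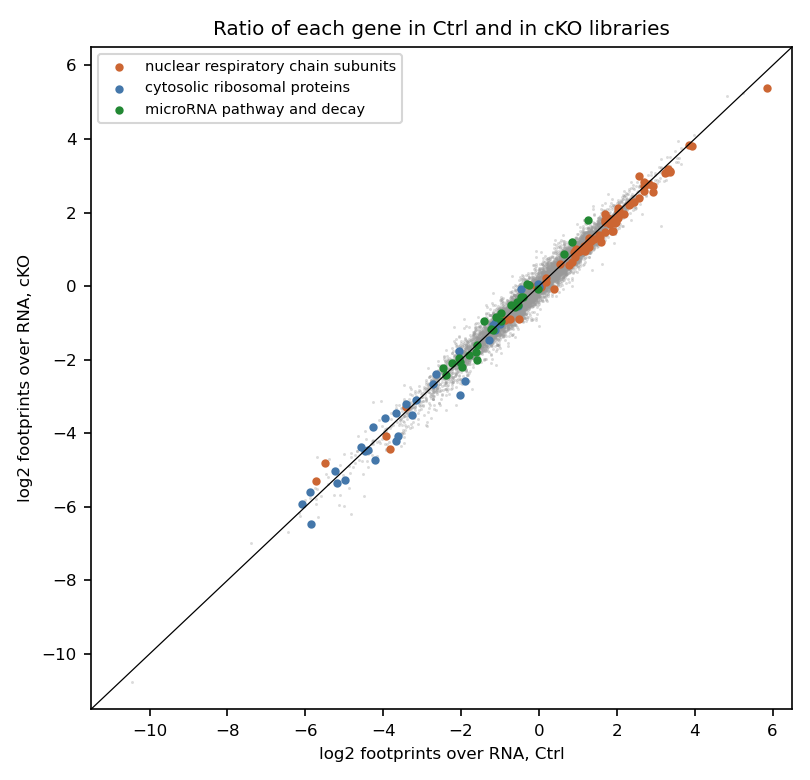
Each point is a gene, with its log2 footprint to RNA ratio in Ctrl (horizontal axis) and in cKO (vertical axis) on equal axes with the line of equality, and 3 gene lists in colour. The points follow the line from -10.46 (Atp2a2) to 5.85 (Ndufb2) in Ctrl, with respiratory chain subunits mostly at the upper right and cytosolic ribosomal proteins at the lower left.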

How the data were processed

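Heart RNA-seq and Ribo-seq were used, with 2 Ctrl libraries each. The authors deposited read counts per gene and footprint counts per open reading frame, as whole numbers without normalization. The submitters' processing notes name GRCm38, the aligners Bowtie, Bowtie2, HISAT2 and STAR, the counters StringTie and featureCounts, and also DESeq2 and cutadapt. Which tool made which table, the annotation, the strand setting and the treatment of multiply mapped reads are not given in the sources used here. Of several frames per gene the longest was kept.

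Footprints were tested against RNA with edgeR 4.0.16 (quasi-likelihood, TMM, R 4.3.3) over all 9551 genes, with Benjamini-Hochberg adjustment at 0.05. The SE of a log2 ratio is its size divided by the square root of F. On simulated data 200 of 9551 genes were given log2 changes of 1 or 2, evenly up and down, and the test recovered 100% of them. Far more genes were called in the measured libraries, a setting that the simulation does not cover. Symbols came from a name table and gene positions from RefSeq on GRCm38.p6.

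Members and the 40 gene lists were chosen with earlier results of these data known. The genes named are the 10 highest and 10 lowest past the threshold with at least 10 CPM of RNA and no overlap between assays, the extremes of each list with its most abundant RNAs, and the extremes of each length class with at least 50 CPM. Other genes were chosen after their values were seen. Alternatives were relative-log-expression factors, library totals, DESeq2 1.42.0, limma-voom 3.58.1, minima of 10 and 200 counts, a replicate block, each library left out, other frame choices and the cKO libraries. Count errors apart, precision is limited by n = 2. Results for some genes are not reported here.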

Additional observations from a re-analysis of the deposited data

How the results depend on the processing

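The rho of ratio and frame length stayed negative under every alternative run. Genes with more and with fewer footprints were near balance, and the larger count turned with relative-log-expression factors (3856 higher, 3825 lower), DESeq2 (3596 and 3544) and the single-frame set. With at least 200 counts in each library, 2520 genes had more footprints than RNA, 1006 at least 2-fold more and 1180 at least 2-fold fewer, as fewer genes were tested. In the single-frame set, chosen after the data were seen and fewer in genes, the counts were 1649 higher, 948 lower, 781 at least 2-fold higher and 399 at least 2-fold lower. The rho of ratio and frame length was -0.089 with at least 10 counts, -0.159 with at least 200, -0.100 with the frame of most footprints, -0.115 in cKO and -0.150 in the single-frame set; the cause was not tested. Leaving out each library in turn gave 3457 to 3828 genes higher, 3502 to 3836 lower, 1705 to 1715 at least 2-fold higher and 2039 to 2076 at least 2-fold lower, and rho from -0.135 to -0.128. The lone library left in an assay was assumed to vary like the others.

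With the replicate number as a block, 3978 genes had more footprints than RNA and 4016 fewer, 1698 and 2049 of them by at least 2-fold. RNA and footprint libraries share only a number: the labels do not tie them to 1 heart, and their differences correlated at 0.26 over genes. Direction reversed for the median of calcium genes with library totals (-0.023), of upstream-frame messages in the single-frame set (0.691), and of selenoproteins with footprints summed over frames (0.197) and in the single-frame set (0.883). It also reversed for Pln with the frame of most footprints (2.167) and with footprints summed over frames (2.207). Rps19, near 0 and not called, was -0.176 with library totals, -0.001 with limma-voom, -0.075 with at least 200 counts, -0.014 in cKO and -0.151 to 0.163 with a library left out. Among named genes a call was lost 10 times over all alternatives, for Aacs, Egr1 (DESeq2), Neb (cKO) and Qars. Scaling RNA to transcript length was not run. The depth limits genes near 50 counts: the 190 genes whose lowest count was 50 to 54 had a median ratio of -0.39, and the 190 just below the rule, at 45 to 49, -0.53.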

Other observations

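Genes that met the rule in 1 assay only are values outside the comparisons above. With at least 50 RNA counts but not 50 footprints there were 1244 genes with a frame, of which 1087 are protein-coding in RefSeq, 760 have more than 1 frame and 96 have a named pseudogene. Gapdh, the glycolytic enzyme with many pseudogenes, had 24656 and 22948 RNA counts and 20 and 18 footprints. Atp5g1, a c subunit gene of ATP synthase with 1 frame, had 13512 and 12593 RNA counts and 37 and 28 footprints. The endothelial adhesion gene Pecam1, with 3 frames, had 7600 and 7918 RNA counts and 0 and 2 footprints. Map1lc3b, the autophagosome protein LC3B, with 1 frame, had 4416 and 4385 RNA counts and 4 and 7 footprints.

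In the opposite direction, 678 genes had at least 50 footprints but not 50 RNA counts, of which 592 had 1 frame. Rpph1, the non-coding RNA of RNase P, listed with a frame of 13 codons, had 214757 and 187706 footprints and 0 and 0 RNA counts. Replication-dependent histone genes were among them: Hist1h4d had 2217 and 3048 footprints and 1 and 2 RNA counts, and Hist1h1e 804 and 1428 footprints and 24 and 27 RNA counts. Such histone messages end without a poly(A) tail, and histone genes have near-identical copies. Metallothionein Mt2 had 3452 and 5304 footprints and 2 and 4 RNA counts. The smooth muscle gene Tagln had 1354 and 1783 footprints and 10 and 12 RNA counts. All of these genes were selected after their values were seen.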
